A study of Mus musculus with 4 samples.

Results

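The genes described here are 10 enzymes and regulators of de novo lipogenesis, the making of fatty acids from carbohydrate, followed in the liver of mice that carry a mutant Wrn protein with and without vitamin C in the drinking water. The members are Fasn, Scd1, Pnpla3, Acly, Acaca, Elovl6, Me1, Thrsp, Srebf1 and Mlxipl, and they were found through the RefSeq accession of each probe. All 10 genes were on the array, with 14 of its 41174 probes, and all 10 passed the filter on dim spots that kept 31077 genes or accessions. They were chosen as a pathway with their ratios in these 4 arrays already known, so those ratios are given below as a description and carry no test of their own.

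Both groups were livers of male C57Bl/6 mice aged 3 months with the Wrn mutation. The treated animals had received 0.4% vitamin C in their water from weaning on, and the controls, which carry the same mutation, had received none. The allele is not named in the labels, and a group without the mutation was not analysed here. RNA from 4 treated and 4 untreated livers, called biological replicates, was hybridized in 4 pairs to Agilent arrays with 2 colours, the treated liver always in Cy3 and the untreated one always in Cy5. The mice had food and water freely on a reversed light cycle; the hour at which livers were taken is not given in the sources used here. With 0 dye-swapped arrays, a dye effect of a probe and an effect of the treatment cannot be told apart.

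De novo lipogenesis runs in the cytosol of hepatocytes and is known to be high after feeding and low in fasting. Citrate lyase (Acly) makes acetyl-CoA, acetyl-CoA carboxylase (Acaca) turns it into malonyl-CoA, and fatty acid synthase (Fasn) builds palmitate with NADPH, part of which comes from malic enzyme (Me1). Elovl6 lengthens the product and stearoyl-CoA desaturase (Scd1) puts in a double bond. Transcription of these enzymes is driven by SREBP1, the product of Srebf1, which responds to insulin, and by ChREBP, the product of Mlxipl, which responds to glucose. Thrsp (Spot 14) is a small nuclear and cytosolic protein that promotes lipogenesis, and Pnpla3 is a lipid droplet protein; both genes are known targets of these factors.

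Promoter sequences of 9 of the 10 members were in RefSeq's table of the mouse build GRCm38.p6, in 13 windows of 250 bases before and 50 after a transcription start; Scd1 was the member without a match. The 5 windows below belong to the 4 members with the widest or most shared swings between the pairs of livers, and to Mlxipl, which varied least. Capitals mark matches, on either strand, to the CCAAT box bound by NF-Y (CCAAT, or ATTGG on the other strand), the GC box bound by Sp1 (GGGCGG or CCGCCC), the palindromic E-box CACGTG, or a sterol regulatory element (TCACNCCAC). Fasn lies at chr11:120824498-120824797, minus strand, Pnpla3 at chr15:84167566-84167865, plus strand, Elovl6 at chr3:129532136-129532435, plus strand, Thrsp at chr7:97417501-97417800, minus strand, and the first Mlxipl window at chr5:135106641-135106940, plus strand.
Fasn: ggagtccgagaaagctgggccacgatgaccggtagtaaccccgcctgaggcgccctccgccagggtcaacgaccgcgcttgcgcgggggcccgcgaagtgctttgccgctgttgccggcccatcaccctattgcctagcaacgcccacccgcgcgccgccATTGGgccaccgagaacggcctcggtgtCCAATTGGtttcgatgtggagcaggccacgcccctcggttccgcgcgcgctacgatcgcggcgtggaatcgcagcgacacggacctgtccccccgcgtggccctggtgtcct
Pnpla3: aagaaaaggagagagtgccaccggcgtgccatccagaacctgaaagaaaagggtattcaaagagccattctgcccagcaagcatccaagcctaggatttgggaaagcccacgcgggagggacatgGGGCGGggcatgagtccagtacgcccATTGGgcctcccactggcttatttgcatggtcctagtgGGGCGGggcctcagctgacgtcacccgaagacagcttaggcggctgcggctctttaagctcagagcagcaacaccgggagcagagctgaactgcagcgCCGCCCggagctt
Elovl6: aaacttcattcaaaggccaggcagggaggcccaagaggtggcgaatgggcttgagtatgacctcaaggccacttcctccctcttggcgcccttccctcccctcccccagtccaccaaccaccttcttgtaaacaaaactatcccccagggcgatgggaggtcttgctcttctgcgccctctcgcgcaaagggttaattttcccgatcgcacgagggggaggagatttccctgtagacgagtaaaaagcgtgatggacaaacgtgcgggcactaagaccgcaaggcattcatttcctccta
Thrsp: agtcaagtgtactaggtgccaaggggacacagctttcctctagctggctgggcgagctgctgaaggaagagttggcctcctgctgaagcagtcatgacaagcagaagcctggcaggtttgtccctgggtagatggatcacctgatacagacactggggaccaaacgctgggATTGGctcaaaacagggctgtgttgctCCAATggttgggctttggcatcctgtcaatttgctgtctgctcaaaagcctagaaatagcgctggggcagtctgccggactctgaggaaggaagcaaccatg
Mlxipl: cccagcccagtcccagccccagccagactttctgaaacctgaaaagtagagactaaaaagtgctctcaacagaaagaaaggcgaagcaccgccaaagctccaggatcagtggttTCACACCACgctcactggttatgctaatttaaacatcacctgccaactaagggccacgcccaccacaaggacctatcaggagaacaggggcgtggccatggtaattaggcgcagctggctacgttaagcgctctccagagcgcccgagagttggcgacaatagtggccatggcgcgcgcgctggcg

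The Fasn window held 3 CCAAT boxes, which start at bases -90, -62 and -59 from the transcription start, the latter pair overlapping as inverted repeats. Thrsp held 2, at -79 and -52, and Pnpla3 held 1, at -99, with 3 GC boxes. Elovl6 held none of the 4 motifs in these letters. A CCAAT box was found in 8 of the 13 member windows and in 37.4% of all 32851 windows of this length, and a GC box in 6 of 13 and in 35.7%. The single match to the sterol regulatory element lay in Mlxipl at -136, where 1.24% of all windows hold one, and the single E-box in the other Mlxipl window (7.15% of all windows). That other window, which is not printed above, also held 1 CCAAT box at -173 and 2 GC boxes at -188 and -38. Such a match describes letters in these windows and is no measured binding site.

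Before the members, 1 array has to be set apart. Across all genes, the log2 ratios of replicates 1, 3 and 4 correlated with each other at r = 0.601 to 0.785, whereas replicate 2 stood at r = 0.020, -0.147 and -0.178 against replicates 1, 3 and 4 (across genes, which are not independent replicates). Median spot intensities were 379.5 to 530 in Cy3 and 813 to 962 in Cy5, against 62 to 67 and 66 to 80 on negative control spots. The 4 arrays lay on 1 slide with 1 scan date. The hepatocyte markers Alb, Ttr, Apoa1 and Tat were all bright, with mean log2 intensities of 15.6 to 18.0. A further marker, Cps1, was not kept. Their array medians of the log2 ratio were -0.34, -0.41, -0.30 and -0.14. Alb (mean -0.70) and Apoa1 (mean -0.26) were below 0 on all 4 arrays, and Tat had a mean of -0.41. Ttr, the dimmest, went the other way (mean 0.11) and was below 0 on replicate 2 only (-0.026). Alb, Apoa1 and Tat lay at 17.1 to 18.0, and the 153 genes at 17 or more had a median of -0.30. The median of the marker means was -0.34, or -0.12 once the median of probes of like brightness was subtracted. The part of brightness in these ratios, and of the markers' shift in the members' values, was not tested. The members' means and the lists' counts are therefore given with replicate 2 and without it.

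The main feature of the lipogenic genes was disagreement between the pairs of livers. All ratios are log2 of treated over untreated, from the dye labels; the authors' deposited table runs the other way. On replicate 2, 9 of 10 members were lower in the treated liver (52% of all genes were), with a median log2 ratio of -0.99, and on replicate 3, 9 of 10 were higher (48.1% of all genes), with a median of 1.03. The single exception on both arrays was Acaca, higher on replicate 2 (48% of all genes) and lower on replicate 3 (51.9%). This exception rests on the brightest of the Acaca probes. With the mean of all probes of a gene, 10 of 10 members were below 0 on replicate 2 and 10 of 10 above 0 on replicate 3. Replicate 4 had 7 of 10 higher (48.7% of all genes) and 3 lower (51.2%), with a median of 0.34. Replicate 1 had 4 of 10 higher (45.9%) and 6 lower (54.1%), with a median of -0.29. The median of all genes lay between -0.019 and -0.0071 on each array. Averaged over the 4 pairs, 5 members had a mean above 0 and 5 below it (46.1% of all genes were above), and the median of the 10 means was -0.05. In bulk liver, fewer cells of a type and less RNA per cell cannot be told apart.

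**Figure D1:**
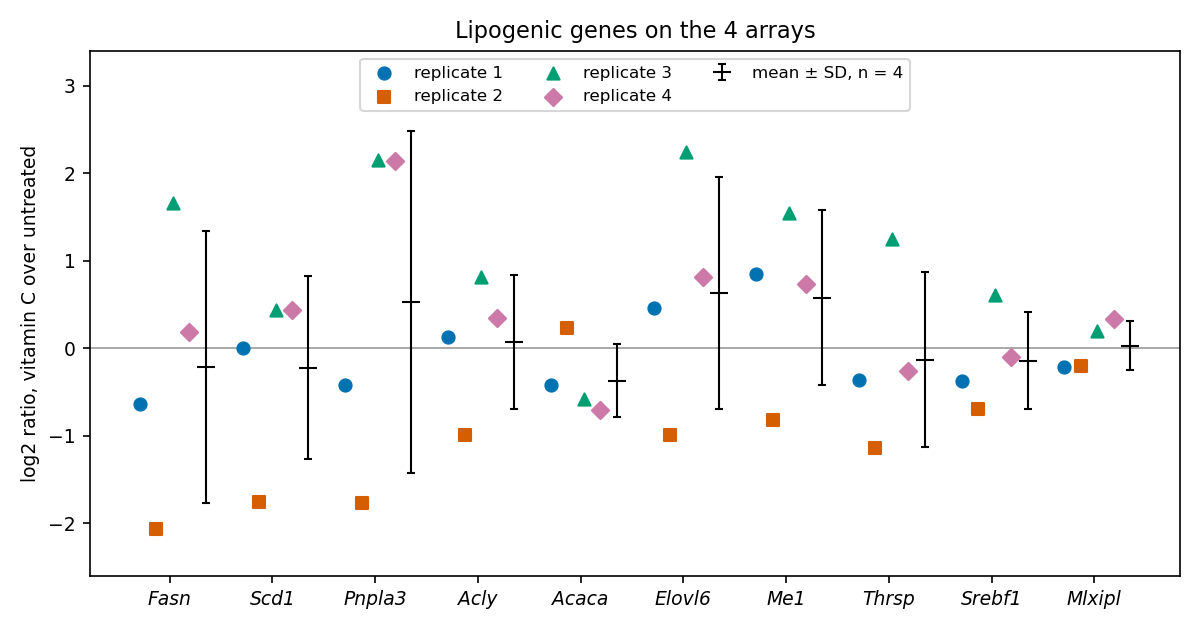
Log2 ratio of vitamin C over untreated liver (vertical axis) for each of the 10 lipogenic genes on the 4 arrays; symbols are single arrays, and the bar beside them is the mean ± SD of the 4. Replicate 2 is the lowest and replicate 3 the highest for 8 genes (Scd1 lies level on replicates 3 and 4). Acaca, shown by its brightest probe, runs the other way.

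No member passed the test across the whole array. With limma's moderated test and Benjamini-Hochberg adjustment over 31077 genes, 0 genes had an adjusted p under 0.05 (0%), 0 of 10 members among them, and the smallest adjusted p of any gene was 0.144. Before adjustment, 8609 genes (27.7%) and 0 of the 10 members had a p under 0.05. For every member the SD over the 4 arrays was larger than the size of its mean. No member had the same sign on all 4 arrays, which 30.9% of all genes had. Without replicate 2, 8754 genes (28.2%) passed, and 2 members were among them, Me1 higher (10% of all genes passed as higher) and Acaca lower (18.1% as lower); nothing is read from these counts, since the members were chosen on these ratios. With the array as a random block in a separate-channel fit, 888 genes (2.86%) and 0 members passed (1.79% of all genes as higher and 1.07% as lower).

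Among the enzymes that make the fatty acid chain, Fasn showed the widest opposition. Its log2 ratios were -0.64, -2.06, 1.66 and 0.18 on replicates 1 to 4. The treated liver thus had 4.17-fold less signal than its untreated partner on replicate 2 and 3.17-fold more on replicate 3, with a mean of -0.21 ± 1.56 (SD, n = 4). The mean was 0.40 without replicate 2 and -0.84 without replicate 3. A further Fasn probe, of lower brightness, gave 0.019, -1.44, 2.04 and 0.60, the same order of arrays with a mean on the other side of 0 (0.30 ± 1.44). The brighter probe lay at a log2 intensity of 17.6. At 17 or more, the 153 genes on the array had a median log2 ratio of -0.30. Both the sign of the Fasn mean and its size therefore depended on the probe, whereas the lower value on replicate 2 and the higher one on replicate 3 were seen by both probes.

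Acly, which supplies acetyl-CoA, had log2 ratios of 0.13, -0.99, 0.81 and 0.35 on replicates 1 to 4. Its mean was 0.076 ± 0.77, with 1 array below 0. Me1, a source of NADPH, had 0.85, -0.82, 1.54 and 0.74. Its mean of 0.58 ± 1.00 was among the highest of the members, and replicate 2 again was the array below 0. Without that array the means were 0.43 for Acly and 1.04 for Me1; without replicate 3 they were -0.17 and 0.26.

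Acaca was measured by 4 probes that disagreed. The brightest one, which represents the gene, ran opposite to the other members at -0.42, 0.23, -0.59 and -0.71 (mean -0.37 ± 0.42). A dimmer probe followed the common order at 0.029, -0.75, 0.58 and 0.19. Another lay between -0.073 and 0.035 on all 4 arrays, and the dimmest between -0.087 and 0.36. The mean of all 4 probes was -0.075, and that of the brightest probe without replicate 2 was -0.57. Where these probes lie in the transcript was not examined, so the value of Acaca is uncertain.

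**Figure D2:**
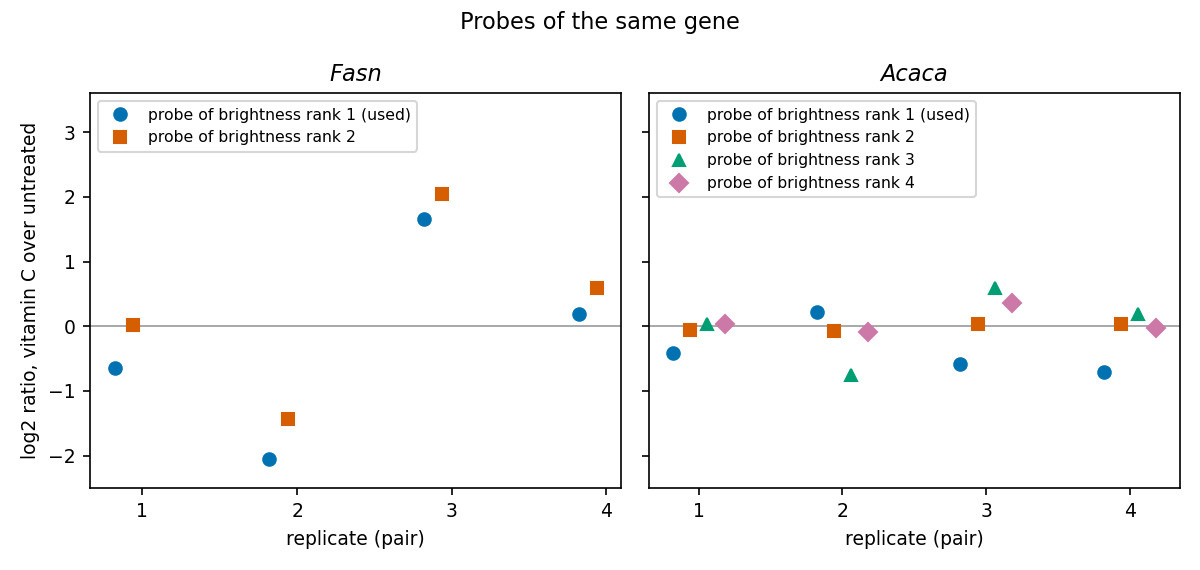
Log2 ratio of vitamin C over untreated liver on the 4 arrays for each probe of Fasn (left) and Acaca (right); each symbol is a probe, ranked by brightness, offset sideways for legibility. Both Fasn probes are lowest on replicate 2 and highest on replicate 3, while the brightest Acaca probe opposes the third in brightness.

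Elovl6 and Scd1 act on the finished chain. Elovl6 had log2 ratios of 0.46, -0.99, 2.24 and 0.82. The value on replicate 3, a 4.72-fold difference, was the highest of any member on any array, and the mean of 0.63 ± 1.33 the highest mean. It was 1.17 without replicate 2 and 0.097 without replicate 3. Scd1 had 0.0073, -1.76, 0.43 and 0.43. The treated liver was 3.39-fold lower on replicate 2, the single array below 0. The mean was -0.22 ± 1.05, and 0.29 without replicate 2; leaving out any other array kept it below 0, at -0.44 to -0.30. Scd1 shares much of its sequence with other desaturase genes, so some of its signal may belong to them. A related desaturase gene, Scd2, had a mean of 0.25 ± 0.66.

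Pnpla3 swung as widely as Fasn, from a dim spot. Its log2 ratios were -0.42, -1.77, 2.16 and 2.14. The treated liver was 3.42-fold lower on replicate 2 and 4.46-fold and 4.41-fold higher on replicates 3 and 4. The mean was 0.53 ± 1.95, the largest SD of the members. Leaving out replicate 2 gave 1.29, and leaving out replicate 3 or 4 turned the sign, to -0.018 and -0.013. The probe was well above background in both channels on all 4 arrays, at a mean log2 intensity of 8.15. Its raw signal was however low on 1 side of each wide ratio. It was 153 in treated liver 2, against 62 on negative control spots of that channel. Untreated livers 3 and 4 had 156.5 and 160, against 76.5 and 80. These fold differences are therefore uncertain in size. Thrsp had -0.36, -1.14, 1.25 and -0.27, with a mean of -0.13 ± 1.00 and 1 array above 0. Its mean was 0.21 without replicate 2 and -0.59 without replicate 3.

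The genes of the driving factors varied less than the enzymes other than Acaca. Srebf1 had log2 ratios of -0.38, -0.69, 0.61 and -0.095 and a mean of -0.14 ± 0.56, or 0.044 without replicate 2 and -0.39 without replicate 3. It kept the common order of arrays, with a 2.47-fold span between its extremes against 13.2-fold for Fasn. Mlxipl had -0.21, -0.20, 0.20 and 0.34, a mean of 0.030 ± 0.28 (0.11 without replicate 2) and a 1.47-fold span. Its lowest array was replicate 1, close to replicate 2, and its highest was replicate 4. These are transcript levels; the processed factors were not measured.

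Counted over arrays, 8 of 10 members had their lowest ratio on replicate 2 (37.9% of all genes) and the same 8 their highest on replicate 3 (19.4%); both together were found for 11.9% of all genes. The exceptions were Acaca, by its brightest probe, and Mlxipl. On replicate 2, Fasn, Scd1, Pnpla3 and Thrsp were at least 2-fold lower in the treated liver (0.113% of all genes) and 0 members were that much higher (0.0515%). On replicate 3, Fasn, Pnpla3, Elovl6, Me1 and Thrsp were at least 2-fold higher (0.309% of all genes) and 0 were lower (0.434%). On replicate 4, Pnpla3 was higher (0.325% of all genes) and 0 members were lower (0.544%), and on replicate 1 there were 0 members in either direction (0.138% of all genes higher and 0.151% lower). The median SD of the members over the 4 arrays was 1.00, against 0.13 over all genes, and a share of 99.8% of all genes had a smaller SD. The single members stood above 87.6% (Mlxipl) to 99.99% (Pnpla3) of all genes in SD. These shares describe genes picked with their values known and are not a test.

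**Figure D3:**
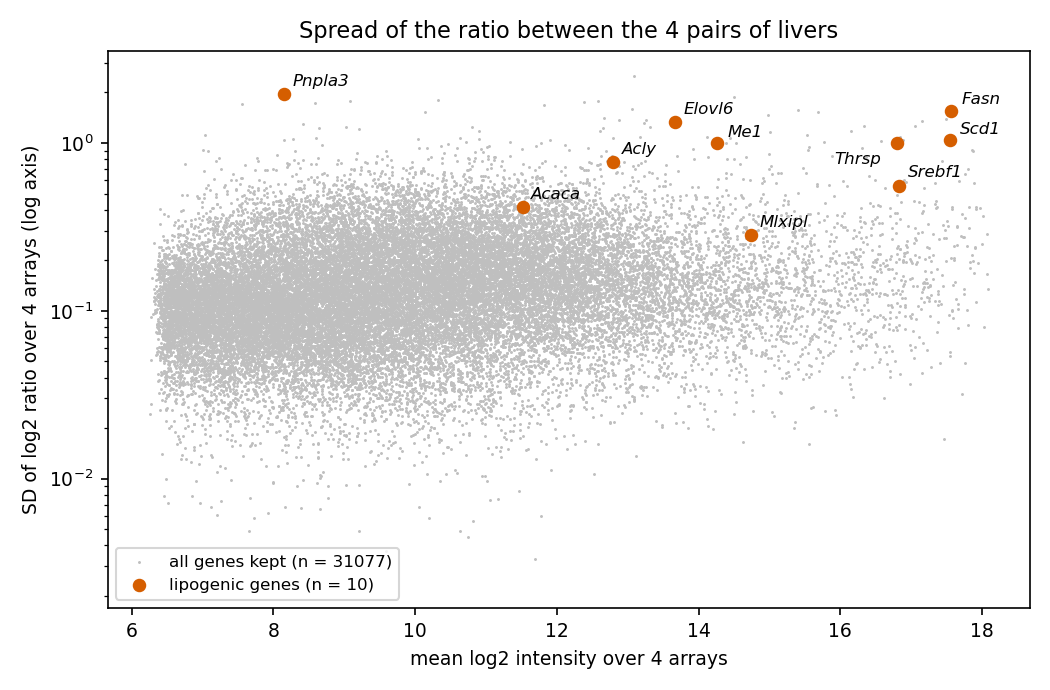
SD of the log2 ratio over the 4 arrays (vertical axis, log scale) against mean log2 intensity for all 31077 genes kept (grey) and the 10 lipogenic genes (orange, named). Pnpla3 and Fasn have SDs of 1.95 and 1.56, and Mlxipl, at 0.28, lies nearest the bulk of genes.

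The log2 intensities of the single livers were compared within a dye. Each was computed from the mean intensity of the spot over both channels and its log2 ratio. These levels therefore partly restate the ratio and cannot show which liver of a pair gave rise to the difference. For Fasn the treated livers had 17.25, 16.31, 18.60 and 17.68 in replicates 1 to 4, and the untreated livers 17.90, 18.38, 16.93 and 17.50. In replicate 2 the treated liver was the lowest of its 4 and the untreated liver the highest of its 4, and in replicate 3 the reverse held. The raw spot intensities had the same order, with 127898, 48219, 217165 and 168199 in treated livers and 338693, 505032, 186735 and 279781 in untreated ones. Both channels of a spot share the array, so the values of a pair are not independent.

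For Scd1 the spread lay mostly among the treated livers, at 17.70, 16.40, 17.78 and 17.89. The untreated livers were at 17.69, 18.16, 17.35 and 17.45. The treated liver of replicate 2 thus stood below the other treated livers. Pnpla3 was the opposite case: the untreated livers ran from 6.74 to 9.48, a 6.68-fold range, and the treated livers from 7.71 to 8.97, a 2.39-fold range. Untreated livers 1 and 2 had 8.51 and 9.48, and untreated livers 3 and 4 had 6.74 and 6.82. The latter values came from low raw signals, 156.5 and 160, so the size of this range is uncertain.

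For Elovl6 the ranges were alike, 3.02-fold in treated and 3.10-fold in untreated livers, with treated liver 3 highest at 14.91 and untreated liver 3 lowest at 12.67. Me1 had a 1.99-fold range in treated and a 2.59-fold range in untreated livers. Across the members, the highest untreated liver was that of replicate 2 for 7 of 10 genes and the lowest that of replicate 3 for 7 of 10. The lowest treated liver was that of replicate 2 for 7 of 10 and the highest that of replicate 3 for 7 of 10. Over all genes these shares were 27.2%, 21.3%, 30.5% and 15.5%. These ranks are of scaled levels. By raw signal, not scaled between arrays, the highest treated liver stayed that of replicate 3 for Fasn, Elovl6 and Thrsp. For Acly and Me1 it was that of replicate 1, and for Srebf1 and Mlxipl that of replicate 4. Median SDs within a group were 0.52 among treated and 0.60 among untreated livers, against 0.16 and 0.12 over all genes. The ranges of treated and untreated livers overlapped for all 10 members and for 92.9% of all genes.

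**Figure D4:**
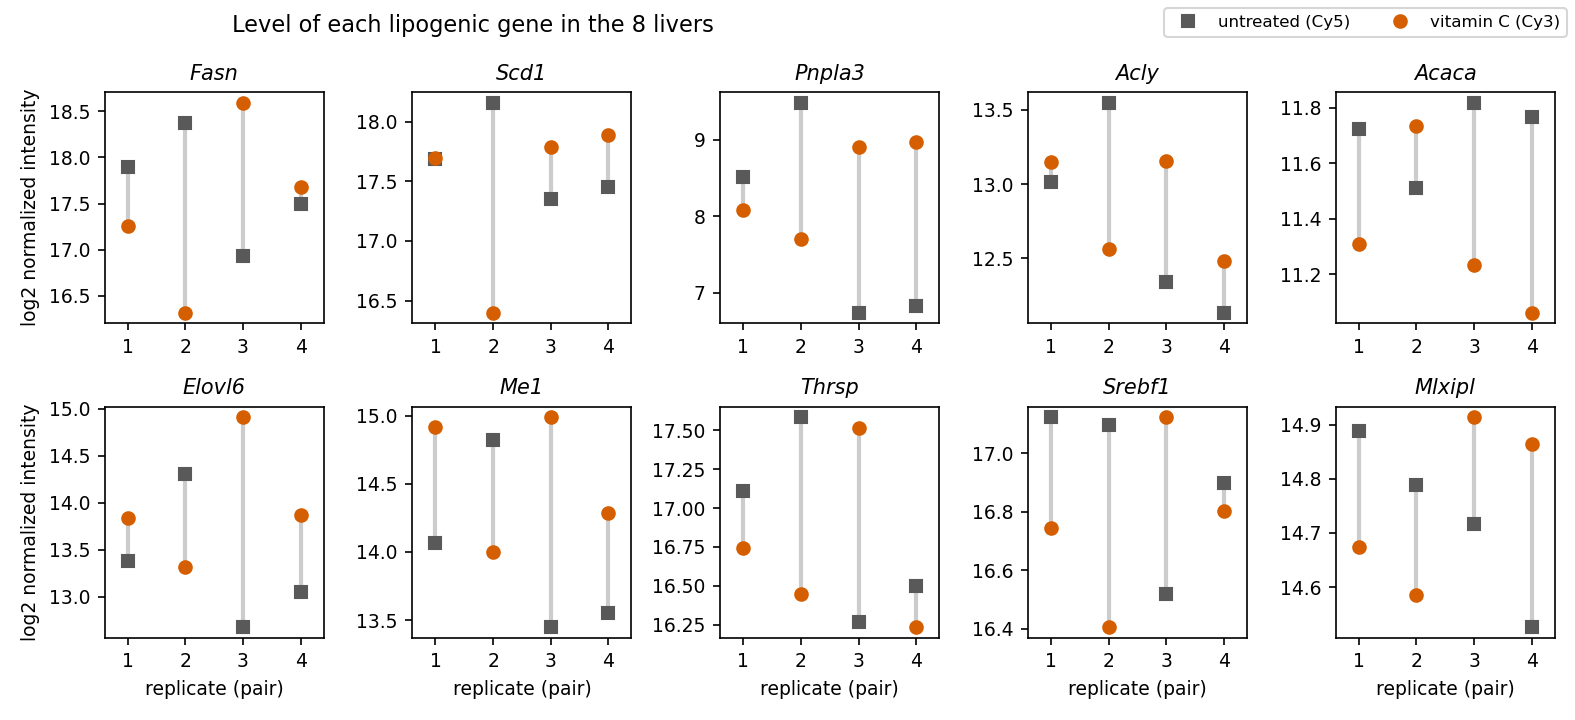
Log2 normalized intensity of the 10 lipogenic genes in the untreated (grey squares, Cy5) and vitamin C treated (orange circles, Cy3) liver of each pair; grey bars join the livers of 1 array, and each panel has its own vertical axis. The order within pairs flips between replicates 2 and 3 for 9 genes other than Acaca. For Acaca, shown by its brightest probe, it flips in the other direction. Treated and untreated livers overlap in all 10 panels.

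Other genes of the pathway were read from lists of enzymes, controls and neighbouring pathways. Of 16 further enzymes of acetyl-CoA and NADPH supply, desaturation, elongation and glycolytic feeding, 0 passed the test in either direction and 16 had a mean above 0 (46.1% of all genes did). That count was 7 of 16 without loess, 10 without replicate 3, 13 without replicate 1 or 4, and 15 without replicate 2. Without replicate 2, 6 of the 16 passed (28.2% of all genes did). Their list median was 0.14, with array medians of 0.15, -0.41, 0.60 and 0.36. On replicate 2, 15 of 16 were below 0, and 7 of 16 had the order of lowest on replicate 2 and highest on replicate 3.

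The highest means in this list were those of G6pdx, the first enzyme of the pentose phosphate pathway (0.64 ± 0.59), Acacb, the carboxylase isoform at mitochondria (0.52 ± 1.08), and the elongase gene Elovl5 (0.30 ± 0.91). Among the lowest were those of the pentose phosphate enzyme Taldo1 (0.013 ± 0.13) and the citrate carrier Slc25a1 (0.048 ± 0.15). Acacb had ratios of 0.40, -0.95, 1.49 and 1.12. It was low on replicate 2 and high on replicates 3 and 4, like Pnpla3, while Slc25a1 stayed between -0.13 and 0.24 and Taldo1 between -0.18 and 0.11.

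Of 25 genes that control SREBP1 and ChREBP, 24 were measured, 0 passed, and the array medians were 0.017, -0.082, 0.080 and 0.11. Txnip, a glucose-responsive target of ChREBP, had the highest mean, 0.58 ± 0.50, with 0.91, -0.15, 0.87 and 0.69. The insulin receptor gene Insr was at 0.31 ± 0.29 and Nr1h2, which encodes LXR beta, at 0.26 ± 0.18. Insig2, which holds SREBP in the endoplasmic reticulum, had the lowest mean, -0.47 ± 0.38, and was below 0 on all 4 arrays. Nfya, a subunit of NF-Y, was at -0.12 ± 0.14 and Nr1h3, which encodes LXR alpha, at -0.054 ± 0.094. The partner of ChREBP, Mlx, was at 0.14 ± 0.085. A mean above 0 was found for 19 of the 24, for 20 without replicate 2 and for 11 without loess. The list median was 0.058. Without replicate 2, 4 of the 24 passed (28.2% of all genes did), and without loess 3 passed (31.0% of all genes).

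Cholesterol synthesis genes, driven by SREBP2, are the pathway most closely related. Of 17 genes 16 were measured and 0 passed; 7 had a mean above 0, or 13 without replicate 2 and 2 without loess or without replicate 3. The number that passed was 3 without replicate 2 (28.2% of all genes passed) and 2 without loess (31.0% of all genes). It was 1 in the separate-channel fit with that block (2.86% of all genes). Their array medians were -0.014, -0.50, 0.23 and 0.16, and 15 of 16 were below 0 on replicate 2. The order of lowest on replicate 2 and highest on replicate 3 was seen in 9 of 16. Pmvk (0.26 ± 0.60) and Lss (0.083 ± 0.41) were among the highest means. Sqle (-0.48 ± 0.39), Fdps (-0.32 ± 0.39) and Cyp51 (-0.30 ± 0.10) had the lowest.

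Triglyceride assembly and droplet genes, the next step for new fatty acids, showed the pattern less as a list, with array medians of 0.25, -0.11, 0.19 and -0.18 over 17 genes; the difference from the members was not tested. Of these, 0 passed and 11 had a mean above 0, or 12 without replicate 2 and 5 without loess. The number that passed was 4 without loess (31.0% of all genes passed) and 3 without replicate 2 (28.2% of all genes). It was 1 in the separate-channel fit with that block (2.86% of all genes). The droplet protein genes Cidea (0.73 ± 0.65) and Cidec (0.55 ± 0.81) and Gpam, the first enzyme of glycerolipid synthesis (0.34 ± 1.07), were highest. Gpam had 0.34, -1.01, 1.60 and 0.44, close to the order of the members. Agpat1 (-0.67 ± 0.55), Dgat2 (-0.30 ± 0.17) and the lipase gene Lipe (-0.24 ± 0.16) were lowest.

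Genes of fatty acid oxidation, ketogenesis and fasting were on the same side of 0 as the lipogenic genes on replicates 2 and 3. Over 17 measured genes the array medians were 0.43, -0.16, 0.34 and 0.029, with 14 of 17 below 0 on replicate 2 and 15 of 17 above 0 on replicate 3. In this list 0 genes passed and 12 had a mean above 0 (46.1% of all genes did), or 14 without replicate 2 and 9 without loess. Without replicate 2, 7 of the 17 passed (28.2% of all genes did), and without loess 1 passed (31.0% of all genes). Cyp4a14, a fatty acid hydroxylase induced by PPARalpha, had 3.49, -1.57, 3.92 and 1.43, with a mean of 1.82 ± 2.51. Acot1, an acyl-CoA thioesterase, was at 1.01 ± 0.76 and Cyp4a10 at 0.57 ± 1.00; Cyp4a and Acot genes have close relatives, so the signal of a single one is uncertain. Cpt1a (-0.096 ± 0.27) was among the lowest. On replicate 1 this list lay above 0 and the median of the lipogenic members below it.

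**Figure D5:**
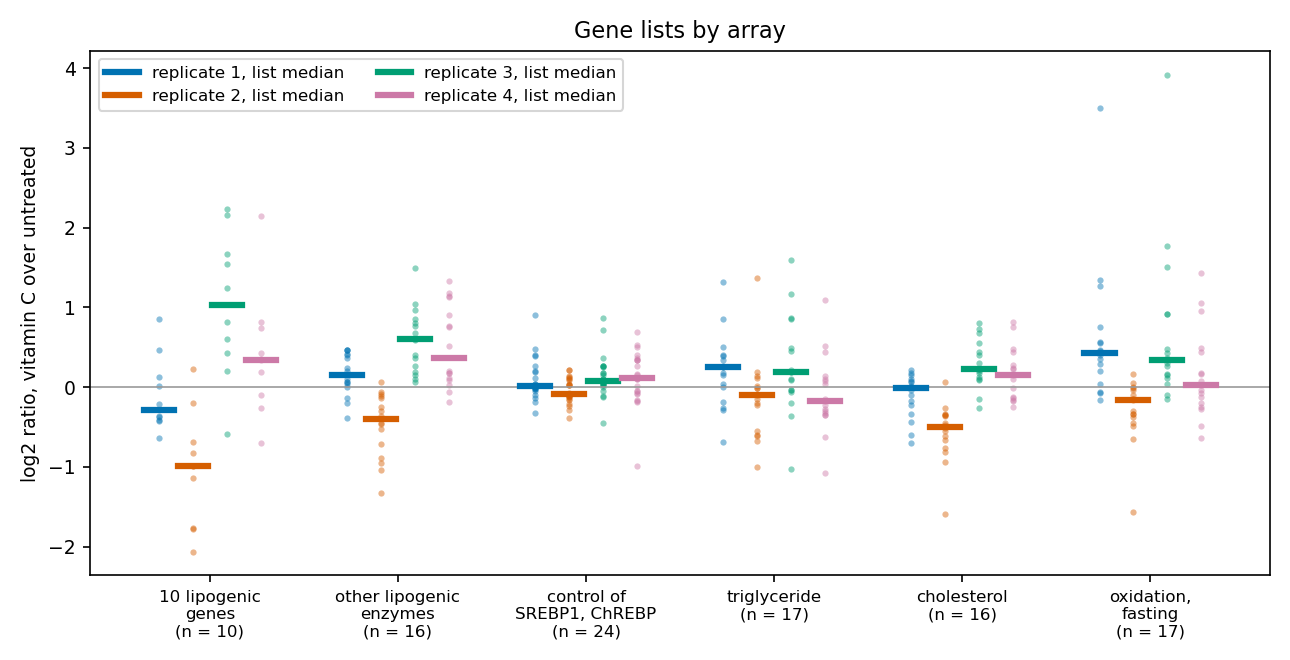
Log2 ratio of vitamin C over untreated liver for the lipogenic members and 5 other gene lists; dots are genes, bars are list medians, and colours are the 4 arrays. The members have medians of -0.99 on replicate 2 and 1.03 on replicate 3, the further lipogenic enzymes -0.41 and 0.60, and the regulators -0.082 and 0.080.

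The genes nearest to the members in pattern were ranked by the Euclidean distance of their 4 ratios from the members' array medians, over 17075 other named genes. They were Sgsm1 (distance 0.36), Noct, the nocturnin gene (0.53), Ppp1r3b, a glycogen-targeting subunit of protein phosphatase 1 (0.55), and the cholesterol synthesis genes Mvd (0.56) and Hmgcs1 (0.59). Sgsm1 had ratios of -0.25, -0.79, 0.76 and 0.47, and Noct 0.015, -0.97, 0.70 and 0.054. Among the members, Acly lay closest to the medians (0.47), followed by Thrsp (0.67) and Srebf1 (0.68). With 4 arrays, this likeness is a description.

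Adipocytes also make fatty acids, so their markers were read beside the members. The 6 adipocyte markers had array medians of 0.062, 0.094, 0.12 and -0.055, with summed log2 intensities of 12.84 to 13.25 in treated and 12.53 to 13.02 in untreated livers. On replicate 2, where the members had a median of -0.99, 4 of the 6 were above 0 and all lay between -0.025 (Cfd) and 0.23 (Fabp4). On replicate 3, where the members had a median of 1.03, they ran from -0.37 (Adipoq) to 1.88 (Cfd). Skeletal muscle markers had array medians of 0.021 to 0.098, biliary markers -0.15 to 0.12, and exocrine pancreas markers -0.025 to 0.019. Macrophage markers had -0.38, 0.21, 0.053 and 0.41, with replicate 1 lowest. The part of these cells in the members' values was not tested.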

How the data were processed

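The authors deposited the spot intensity values of 4 arrays with 2 colours. The scanner software was, per the file headers, Agilent Feature Extraction (version 10.5.1.1), and it gave median signals, median local backgrounds and Agilent's processed signals of both channels. The deposited files also hold a log10 ratio of Cy5 over Cy3, which was not used. A deposited table of log2 values, for which the submitters' processing notes name limma, was compared with the ratios computed here: it correlated with log2 untreated over treated at r = 0.950 to 0.980 across probes, had column medians of 0.00136 to 0.00497, and so runs opposite to the sign used here. The slopes of 1.10 to 1.18 leave its exact scale unknown.

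Ratios are log2 of Cy3 over Cy5, vitamin C over untreated per the labels. Background was corrected with normexp (offset 50). Loess normalization ran within each array, giving control and outlier spots no weight; outlier spots were then left out and the spots of a probe averaged. No spot was saturated (0 on each array). Of 41174 probes, 25097 (61%) matched 1 symbol by accession in a RefSeq table of GRCm38.p6; probe coordinates are not given, since the array design names another build. The brightest probe stood for a gene, and the filter required a channel of it well above background on 3 or more arrays. R 4.3.3, limma 3.58.1 (lmFit, eBayes, Benjamini-Hochberg), statmod 1.5.0 and Python 3.11.15 were used, and the path was tested on simulated data. The number of arrays limits the precision. Levels of single livers are log2 intensities after Aquantile scaling.

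The pairing of livers comes from the shared array and lies in the ratio. The members and gene lists were chosen with earlier results of these data known. Named are all members, the 3 highest and 3 lowest means of each other list, some of which are not reported here, and the 5 genes nearest in pattern; Scd2, Mlx and the single markers were named after their values were seen. Alternatives were other background corrections, no loess, scaling between arrays, no filter, the mean of all probes, a variance trend, each array left out, separate-channel fits, the deposited table and, chosen after seeing the data, a running median over 101 probes of like intensity taken off.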

Additional observations from a re-analysis of the deposited data

Results flagged for a closer look

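Of 30 sets of 4 values examined for a sample far from the others (the ratios of the 10 members, and their levels in treated and in untreated livers), 1 stood out: the level of Scd1 in the treated livers, where the liver of replicate 2, at 16.40, lay apart from 17.70, 17.78 and 17.89. The gap took up a share of 0.871 of the whole range. Chance marks about 1 set in 20.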

How the results depend on the processing

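The number of genes past the adjusted threshold was 0 in most settings. In separate channels it was 888 with the array as replicate block and 0 without the replicate block. The block fit used a single correlation of 0.528 for all genes. The main fit of the ratios, which also pairs the livers of an array, gave 0. The count thus depended on how the pairing was modelled, and the reason was not tested. Median centring without loess gave 9638 genes. Leaving out each array in turn gave 0 to 8754, the latter without replicate 2; the cause was not tested. The median of the members' means, -0.05, lay between -0.235 and 0.346 when single arrays were omitted. It was -0.242 without loess, -0.121 with scaling between arrays, 0.056 with Agilent's processed signals, 0.0373 with the mean of all probes and 0.0603 with the running median taken off, so its sign is not settled. The means of Elovl6 (0.0967 to 1.17), Me1 (0.255 to 1.04) and Acaca (-0.57 to -0.0749) kept their sign in every setting run, while those of Fasn, Scd1, Pnpla3, Acly, Thrsp, Srebf1 and Mlxipl changed sign in 2 to 5 settings. For Acaca, every setting included its brightest probe. The other Acaca probes had means of -0.016, 0.014 and 0.073, so the sign of this gene depends on the probe. All 150 single values stayed within 1 SD of the arrays, but for many of them this was fixed in advance. Leaving out 1 of 4 arrays cannot move a mean by 1 SD. Dropping the filter, the variance trend and the separate-channel fits left the members' means unchanged. No stability is read from this count. In the 10 settings that give a ratio for each of the 4 arrays, the members' median on replicate 2 ran from -1.29 to -0.97 and on replicate 3 from 0.85 to 1.11. Fasn and Scd1 were the 2 members at log2 intensities of 17 or more. Their means were -0.214 and -0.222 in the main fit, and 0.11 and 0.0741 with the running median taken off. The part of brightness in this was not tested. Srebf1 and Thrsp, at 16.8, moved too, from -0.141 to -0.021 and from -0.129 to -0.027. With Agilent's processed signals they were at 0.0302 and 0.0275. The number of members with a mean above 0 was 5 in the main fit, 9 with Agilent's processed signals and 3 without loess.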

Other observations

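Of the marker genes read beside the members, 3 had an SD over the arrays larger than that of the member Acly (0.77); they were chosen after their values were seen. Cfd, the adipsin gene, had log2 ratios of 2.02, -0.025, 1.88 and -1.12 on replicates 1 to 4, with a mean of 0.69 ± 1.53 (SD, n = 4), an order unlike that of the lipogenic genes. Marco, a macrophage receptor gene, was at 2.19 on replicate 2 and at -0.71, 0.053 and 0.41 on replicates 1, 3 and 4. Krt19, a keratin gene of biliary epithelium, had 0.35, 0.20, -1.37 and 0.21, with a mean of -0.15 ± 0.82.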
